A study of Penicillium oxalicum with 6 samples.

Results

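Levels of 5 genes of the filamentous fungus Penicillium oxalicum are described: 4 enzymes annotated with conidial pigment synthesis (Ayg1, Arp1, Abr1 and Arb2) and an L-ascorbate oxidase. They were taken by identifier from a table of 8902 genes and chosen by their deposited values in glucose, which were low in a strain lacking mtr23B, so their difference between that strain and the others is given as a description and not tested. In P. oxalicum mycelia, digital gene expression tags were counted in 3 libraries, 1 for each of 3 strains: M12, the uracil auxotroph (pyrGQ226*) made from the wild-type strain 114-2 (the parent); Dmtr23B, the mtr23B knockout (the deletion strain); and Rmtr23B, in which mtr23B was put back (the complemented strain). Whether the latter strains also carry the pyrG mutation, and how many transformants each stands for, is not given in the sources used here. After a pre-culture of 20 h at 30 °C, mycelia were moved for 24 h to fresh Vogel's medium, both with 2% glucose. The series asks what mtr23B does to transcription. With 1 library per strain, no difference has a replicate check.

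The green and brown colours of mould spores come from pigments laid down in the conidial wall, which shield the spore from light and oxidants. In Aspergillus fumigatus, a polyketide synthase makes the precursor, Ayg1 shortens it to a hydroxynaphthalene, a reductase and the scytalone dehydratase Arp1 carry it on towards dihydroxynaphthalene melanin, and the multicopper oxidase Abr1 and the laccase Abr2 (brown2) act at the end. Multicopper oxidases use copper ions to take electrons from a substrate and pass them to oxygen. They include laccases, ferroxidases and ascorbate oxidases. The name Arb2/brown2 is the spelling of the deposited annotation. The roles given here for the P. oxalicum genes are those of their best protein match.

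In M12, Dmtr23B and Rmtr23B, 2048846, 2013784 and 2147854 tags were assigned to genes, or 61.0%, 60.1% and 63.9% of all tags. Levels are in TPM, a gene's tags divided by the library total and scaled to 1000000. An mRNA yields its tag from a cut site and not along its length, so TPM here is not divided by gene length. A single gene, PDE_09832, took 82567, 2796 and 166043 TPM, in the same order. The median measured gene stood 0.38 higher in Dmtr23B on the log2(TPM + 1) scale than the mean of the other strains, which scaling to the median ratio moved by -0.37 (log2). No row of the table is named mtr23B, so the deleted gene itself was not checked.

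All 5 genes were at their lowest in Dmtr23B, by 3.66-fold to 36.0-fold against the parent and by 4.32-fold to 30.9-fold against the complemented strain. Summed over the 5 genes, 3539 TPM in M12 and 3167 TPM in Rmtr23B stood against 136 TPM in Dmtr23B. The 4 pigment enzymes alone summed to 1103, 1077 and 68.6 TPM in M12, Rmtr23B and Dmtr23B. All 5 reached 10 TPM in a library and lay at least 2-fold below both other strains on the TPM + 1 scale, the size rule used here, which 7.82% of 5756 measured genes also met. At least 10-fold below both lay 4 of the 5 genes and 2.0% of measured genes. Arb2 passed this narrowly, and with a pseudocount of 5 TPM its ratio to the parent was 7.89 and the count 3 of 5. The members were chosen for this contrast, so nothing is read from these shares.

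**Figure D1:**
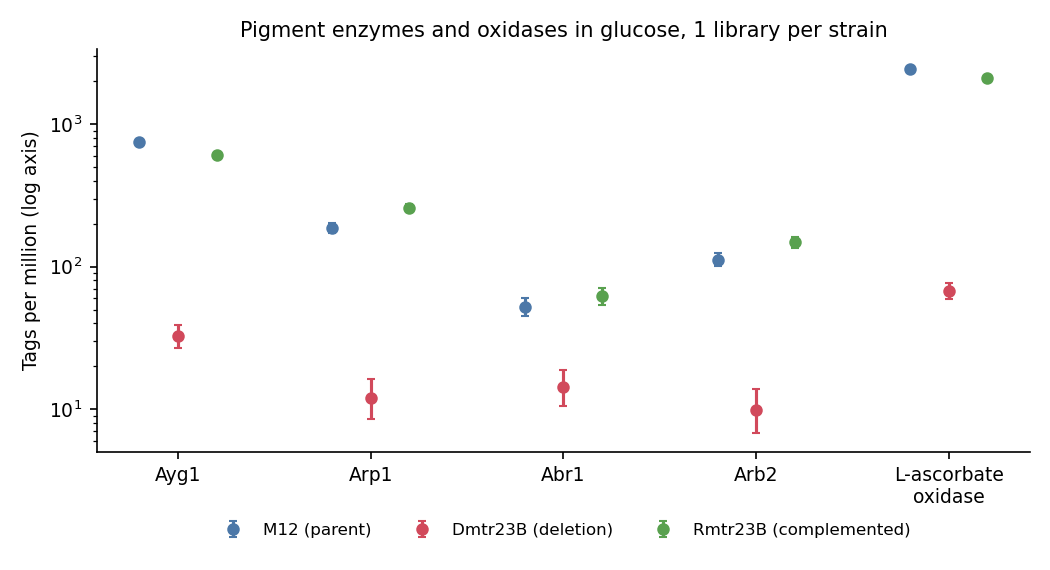
Levels in TPM (log axis) of the 5 genes in the glucose library of each strain, with exact Poisson 95% intervals that cover counting error only. In each gene the deletion strain lies below both others, whose points lie close together.

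Ayg1 (PDE_09452), the enzyme that shortens the polyketide precursor in A. fumigatus, was the most abundant of the pigment genes in every library. It had 2527 tags in M12 (752 TPM), 109 in Dmtr23B (32.5 TPM) and 2050 in Rmtr23B (610 TPM). The parent and complemented strains were thus high and the deletion strain low. M12 exceeded Dmtr23B 23.1-fold (95% counting interval 19.1 to 28.3) and Rmtr23B did so 18.8-fold (15.5 to 23.0). Among all 8902 genes it ranked 95th in M12 and 123rd in Rmtr23B, against 2782nd in Dmtr23B.

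Arp1 (PDE_04496), a scytalone dehydratase, which removes water from scytalone in melanin synthesis, had 625 tags in M12 (186 TPM), 40 in Dmtr23B (11.9 TPM) and 862 in Rmtr23B (257 TPM). It was high in M12 and Rmtr23B and low in Dmtr23B. Rmtr23B exceeded Dmtr23B 21.5-fold (15.7 to 30.3) and M12 did so 15.6-fold (11.3 to 22.0). The annotation also assigns it to sporulation.

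Abr1 (PDE_09453), the brown1 oxidase, annotated with copper ion binding, was the least abundant of the 5 in M12 and in Rmtr23B. It had 176 tags in M12 (52.4 TPM), 48 in Dmtr23B (14.3 TPM) and 208 in Rmtr23B (61.9 TPM). The deletion strain was again the low one, by a smaller margin. M12 exceeded it 3.66-fold (2.64 to 5.14) and Rmtr23B did so 4.32-fold (3.15 to 6.05).

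Arb2 (PDE_09492), the match to the brown2 laccase and annotated with metal ion binding, had 377 tags in M12 (112 TPM), 33 in Dmtr23B (9.85 TPM) and 499 in Rmtr23B (149 TPM). The parent and complemented strains lay together above the deletion strain. M12 exceeded Dmtr23B 11.4-fold (7.97 to 16.8) and Rmtr23B did so 15.1-fold (10.6 to 22.2).

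The L-ascorbate oxidase (PDE_02128), named after a protein of another fungus and carrying no Gene Ontology term, was among the most abundant transcripts of the parent. It had 8184 tags in M12 (2436 TPM), 227 in Dmtr23B (67.7 TPM) and 7021 in Rmtr23B (2090 TPM). It ranked 21st and 22nd of 8902 genes in M12 and Rmtr23B, and 1498th in Dmtr23B. M12 exceeded Dmtr23B 36.0-fold (31.5 to 41.2) and Rmtr23B did so 30.9-fold (27.0 to 35.4). Its margin between Rmtr23B and Dmtr23B could not be told from that of Arp1 by counting error. The ratio of these margins was 0.697 (0.492 to 1.01 for Arp1 over the L-ascorbate oxidase). Between M12 and Dmtr23B that ratio was 0.433 (0.305 to 0.629), an interval that excludes 1. The L-ascorbate oxidase remained the most abundant of the 5 genes in Dmtr23B. Its share of their summed tags was 49.7% there, against 68.8% in M12 and 66.0% in Rmtr23B.

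**Figure D2:**
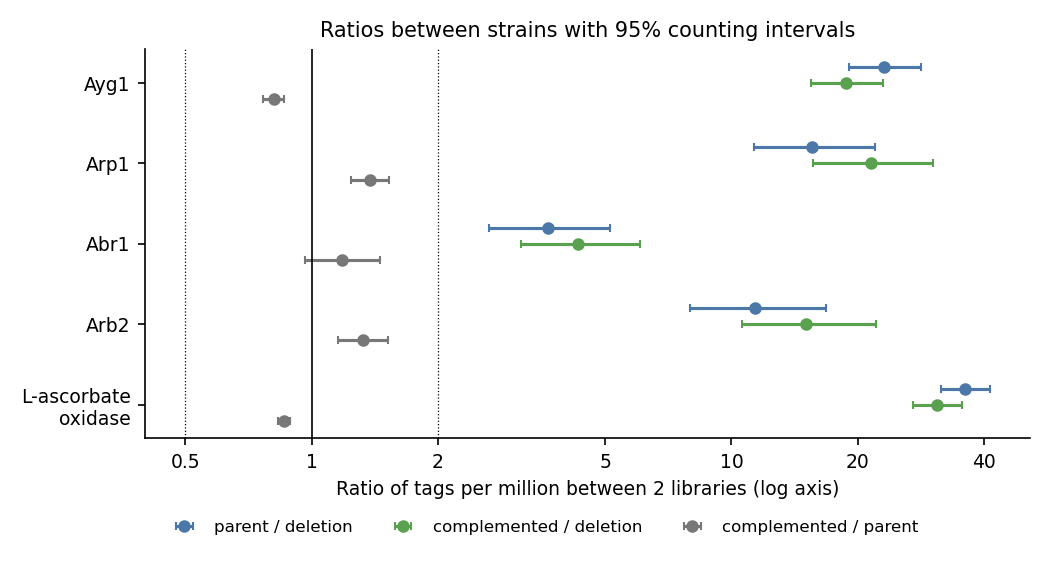
Ratios of TPM between 2 libraries for each gene (log axis), with exact binomial 95% intervals from the tag counts. The solid line marks equal levels and the dotted lines mark 2-fold; the ratios of complemented to parent strain lie between the dotted lines, and the ratios to the deletion strain lie from 3.66 to 36.0.

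The proportions of the 5 genes to each other differed between libraries. The ratio of 2 genes within a library does not depend on how libraries are scaled, and all 10 pairs were compared in this way. Between the parent and the deletion strain the 95% counting interval of the change in ratio excluded 1 in 8 of 10 pairs, and between the complemented and the deletion strain in 6 of 10. It also did so in 6 of 10 between the complemented strain and the parent, so the counts alone mark nothing particular to the deletion strain. They depend on tag number and do not give the size of a change. The ratio of Abr1 to the L-ascorbate oxidase in M12 was 0.102 of that in Dmtr23B (0.0714 to 0.147), the largest change between these strains. Between Rmtr23B and M12 the largest was that of Ayg1 to Arp1, at 0.588 (0.522 to 0.663). The 5 genes were chosen for the contrast with Dmtr23B. Ayg1 had 14.4 tags for each tag of Abr1 in M12, 9.86 in Rmtr23B and 2.27 in Dmtr23B. The Ayg1 margin between parent and deletion strain was thus 6.32 times that of Abr1 (4.25 to 9.28), although their locus numbers are successive. Abr1 likewise differed from Arb2, the other pigment oxidase, with 0.467 tags per Arb2 tag in M12, 0.417 in Rmtr23B and 1.45 in Dmtr23B. Between M12 and Dmtr23B, the pair of Arp1 and Arb2 changed least of the 10, with 1.66, 1.21 and 1.73 Arp1 tags per Arb2 tag in M12, Dmtr23B and Rmtr23B. Their margins differed 1.37-fold, with an interval of 0.820 to 2.27 that includes both no difference and a 2-fold one.

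The counting intervals of the 5 genes were separate from each other in M12 and in Rmtr23B. The order there was the L-ascorbate oxidase, Ayg1, Arp1, Arb2 and Abr1, in TPM from high to low. In the deletion strain the intervals of Abr1 (10.6 to 19.0 TPM), Arp1 (8.53 to 16.3 TPM) and Arb2 (6.78 to 13.8 TPM) overlapped, so the order of these 3 cannot be told at this depth.

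The complemented strain was set against the parent, a comparison of the strains that carry mtr23B. None of the 5 genes differed 2-fold (0 of 5) between these 2 libraries, beside 15.3% of 5226 genes measured in this pair. With 5 genes, not a random draw, this count is too small to set apart from that share. Over all genes of the pair, 10.8%, or 566, were lower and 4.52%, or 236, higher in Rmtr23B (444 and 348 after scaling to the median ratio). Ayg1 was lower in Rmtr23B at 0.811 of the parent (0.765 to 0.860), and the L-ascorbate oxidase at 0.858 (0.831 to 0.886). Arp1 was 1.38-fold higher there (1.24 to 1.53), Arb2 1.32-fold (1.16 to 1.52) and Abr1 1.18-fold (0.962 to 1.45). The counting interval excluded equality in 4 of 5 genes, all but Abr1, beside 52.5% of all genes measured in the pair. These shares are not alike in depth, since more tags give a narrower interval. The 5 genes had 176 tags or more in both libraries, whereas 10 TPM in either was enough for the others. On the log2(TPM + 1) scale these differences ran from -0.30 to 0.46. In the 1656 genes whose parent level lay within the range of the 5, the middle 50% ran from -0.67 to 0.16 and the middle 95% from -2.03 to 1.06. All 5 genes lay within the middle 95%, and Arp1, Arb2 and Abr1 lay above the middle 50%. The direction was unlike between genes: Ayg1 per Arp1 went from 4.04 in M12 to 2.38 in Rmtr23B, a change to 0.588 of the parent ratio (0.522 to 0.663). Of the genes that the size rule placed below both others in Dmtr23B, 28.7% differed 2-fold between parent and complemented strain.

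**Figure D3:**
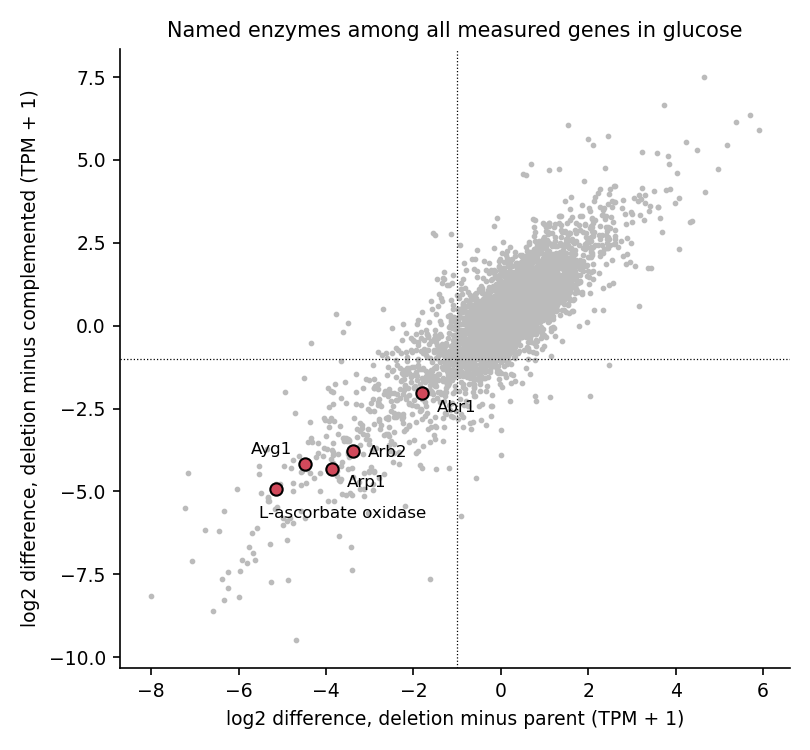
Each point is 1 of 5756 measured genes, with its log2 difference on the TPM + 1 scale between deletion strain and parent (horizontal) and between deletion and complemented strain (vertical); the axes share the deletion library, so points lie along a diagonal by construction. The 5 genes, in red, lie in the lower left below both dotted 2-fold lines, with Abr1 nearest to them.

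Over all genes, 450 met the size rule as lower in Dmtr23B and 623, or 10.8%, as higher (608 and 328 after scaling to the median ratio). In 68 measured genes, or 1.18%, the smaller of the margins to parent and complemented strain was at least that of Arp1. The same count was 32 for the L-ascorbate oxidase, 58 for Ayg1, 112 for Arb2 and 265 for Abr1, or 4.60%. Each count includes the gene itself. The 5 genes were chosen for this contrast, so nothing is read from these positions.

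Some genes beside the 5 in locus order were low as well. Locus numbers stand in here for position on the chromosome, which was not used. Within 5 locus numbers of the 5 genes lay 35 other rows, of which 19 were measured, and 5 of these were lower in Dmtr23B and none higher, or 26.3% beside 7.82% of all measured genes. Of the nearest listed row on each side, 5 were measured and 4 were lower. The numbers are small, neighbours of a gene picked as low are not a random draw, and the difference from other genes was not tested.

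Next to Arp1, PDE_04495 was more abundant than Arp1 and had a like margin. It stood at 563 TPM in M12, 32.8 TPM in Dmtr23B and 510 TPM in Rmtr23B. M12 exceeded Dmtr23B 17.2-fold (14.2 to 21.0). On the other side of Arp1, PDE_04497 stood at 77.1, 20.6 and 72.0 TPM in M12, Dmtr23B and Rmtr23B, 3.74-fold higher in M12 than in Dmtr23B (2.86 to 4.96). The next locus number before Arb2, PDE_09491, had 236, 37 and 335 tags in these strains, and was 6.36-fold higher in M12 (4.49 to 9.26). Next after Ayg1 and Abr1, PDE_09454 had 48, 22 and 147 tags and was 2.18-fold higher in M12 (1.29 to 3.79), and 4 of 9 alternative settings left it outside the size rule. Before Ayg1, PDE_09451, the match to a Cwf13/SkiP transcriptional regulator, had 65, 63 and 29 tags and was neither lower nor higher by the size rule. Near the L-ascorbate oxidase, PDE_02125, 3 locus numbers before it, stood at 104, 3.88 and 97.3 TPM and was 26.9-fold higher in M12 (15.5 to 51.1). None of these neighbours other than PDE_09451 has a product name in the table.

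**Figure D4:**
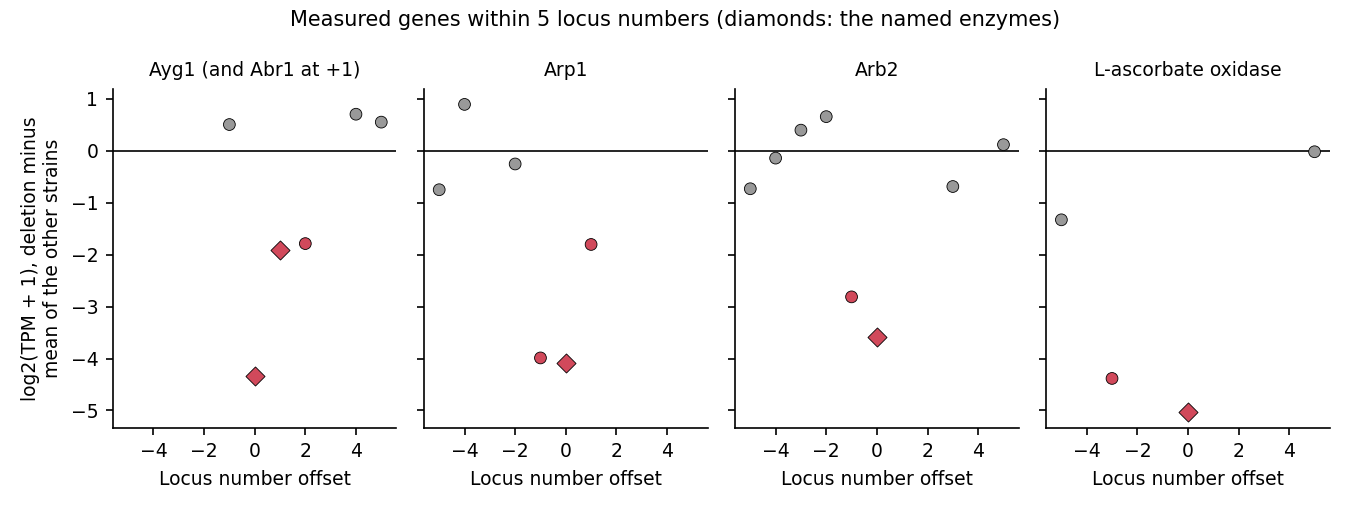
Difference on the log2(TPM + 1) scale between Dmtr23B and the mean of M12 and Rmtr23B for the measured genes within 5 locus numbers of each gene, by offset in locus number. Diamonds are the 5 genes, red points met the size rule as lower and grey points did not; the red points lie within 3 locus numbers of a diamond.

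The best matches of these genes carry locus numbers of another species. The best match of PDE_04495 is Pc21g16430 of Penicillium chrysogenum. In P. oxalicum, PDE_09449 and PDE_09456, which lie on either side of Ayg1 and Abr1, match Pc21g16460 and Pc21g16350, so the number of the Arp1 neighbour's match falls between theirs. Other measured rows near Arp1 have matches outside that range. PDE_04497 matches Pc22g13790, and PDE_04494, PDE_04492 and PDE_04491 match Pc13g04260, Pc16g00960 and Pc20g06720. PDE_09491, beside Arb2, matches Pc21g16000, and Arb2 itself lies 39 locus numbers after Abr1. Best matches are no proof of common descent, and gene order in P. chrysogenum was not examined.

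The other genes of the pathway were sought by name. Descriptions with conidial pigment, melanin, scytalone or hydroxynaphthalene in them matched the 4 pigment genes alone, with no match to the reductase. In 3778 of 8902 rows the description is only a P. chrysogenum locus name, so a gene with no such match may still be among the rows. Of 4 rows named as polyketide synthases, 1 was measured, the reducing enzyme PDE_04018 with 18.8, 20.3 and 17.9 TPM in M12, Dmtr23B and Rmtr23B. It was neither lower nor higher by the size rule. Its name does not place it in the pigment pathway, so the synthase of that pathway was not identified by name. Rows described only by a locus name, such as PDE_09491 beside Arb2, could not be searched for it in this way. The Gene Ontology term for scytalone dehydratase activity, a search added after the data were seen, was held by Arp1 and by PDE_09236. The product of PDE_09236 is not named. PDE_09236 stood at 2368 TPM in M12, 23.9 TPM in Dmtr23B and 9747 TPM in Rmtr23B. M12 exceeded Dmtr23B 99.2-fold (79.6 to 125). Unlike Arp1 it was 4.12-fold higher in Rmtr23B than in M12 (4.02 to 4.22), where Arp1 was 1.38-fold higher.

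Other copper genes gave counts too small to set apart from the background of 7.82% lower and 10.8% higher over all measured genes. The list of multicopper oxidases held 4 measured genes, the 3 described above and a Fet3-like ferroxidase (PDE_07612), an enzyme that oxidises iron for uptake in yeast. Fet3 had 17 tags in M12, 51 in Dmtr23B and 9 in Rmtr23B. It was thus higher in Dmtr23B, 3.01-fold over the parent (1.71 to 5.55), and was outside the size rule at a minimum of 50 TPM or a 3-fold threshold. The list's median difference of -2.75 (log2) stood beside 0.38 for all measured genes, but 3 of its 4 genes were chosen as low. Of 7 other measured genes named for copper, 1 was lower and none higher, with a median of 0.28. The lower one was a Ctr family transporter (PDE_06093), a copper importer, with 73.8, 9.85 and 49.7 TPM in M12, Dmtr23B and Rmtr23B, 7.50-fold higher in M12 than in Dmtr23B (5.20 to 11.1). The most abundant, another Ctr transporter (PDE_05901), stood at 5144, 8547 and 3562 TPM and was not past the size rule. The tyrosinase PDE_04505, of the family that makes melanin from tyrosine in other organisms, had 8, 12 and 12 tags, too few for a comparison. The Gene Ontology term for copper ion binding, also added after the data were seen, covered 9 measured genes besides Abr1. Fet3, already counted above, is among the 9. None of the 9 was lower and 2 were higher, counts again too small to set apart from that background. The higher ones were Fet3 and PDE_04621, a DNA-binding protein by its annotation with 27, 138 and 23 tags.

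Genes of the spore wall and of conidiophore development were compared as a measure of sporulation in the cultures. In bulk mycelium, fewer conidium-forming cells and less RNA per cell cannot be told apart. Apart from the pigment genes, 5 rows carried such names, 3 were measured, and 2 of these were lower in Dmtr23B. Over all measured genes 7.82% were lower, and 3 genes are too few to set apart from that background. The lower ones were BrlA (PDE_00087), the regulator that starts conidiophore development, with 304, 18 and 300 tags in M12, Dmtr23B and Rmtr23B, and the spore-specific catalase CatA (PDE_05708) with 57, 8 and 30 tags. BrlA was 16.8-fold higher in M12 than in Dmtr23B (10.5 to 28.8). CatA was 7.11-fold higher (3.37 to 17.3), and it was outside the size rule in 3 of 9 alternative settings. The conidial hydrophobin RodA (PDE_00021), which coats spores, stood at 1587, 1388 and 812 TPM and was not past the rule. WetA (PDE_08333), which acts in spore maturation, had 3, 8 and 5 tags, and the spore wall protein Dit1 (PDE_01193) had 0, 2 and 0. Summed over these 5 rows, the level was 1695 TPM in M12, 1399 TPM in Dmtr23B and 912 TPM in Rmtr23B, most of it RodA. Without RodA the sum was 108, 10.8 and 99.7 TPM. BrlA alone gave 90.5, 5.37 and 89.3 TPM of this, so that sum largely repeats the BrlA values in M12 and Rmtr23B. The part of sporulating cells in the levels of the pigment genes was not tested.

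**Figure D5:**
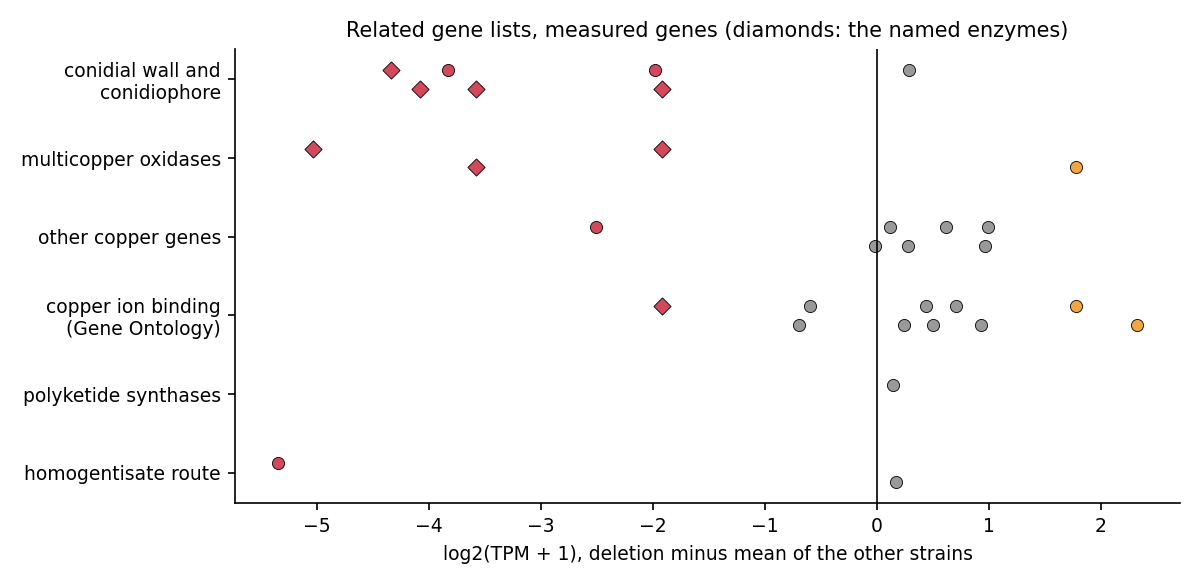
Difference on the log2(TPM + 1) scale between Dmtr23B and the mean of M12 and Rmtr23B for measured genes of 6 related lists. Red genes met the size rule as lower, orange as higher and grey not; diamonds are the 5 genes described, and a gene can stand in more than 1 list.

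Genes with the most similar profile over the 3 libraries were found by the distance between log2(TPM + 1) values centred on each gene's mean, and the 2 nearest were taken for each gene. For Arb2 the nearest was a prenyltransferase (PDE_00807; distance 0.061) with 157, 12 and 198 tags in M12, Dmtr23B and Rmtr23B, followed by PDE_01064 (0.081). For Arp1 they were PDE_01068 (0.084) and the acetyl-CoA hydrolase Ach1 (PDE_06444; 0.117), with 271, 17 and 420 tags. For Ayg1 they were PDE_07054 (0.145) and PDE_02125 (0.146), the latter being the low neighbour of the L-ascorbate oxidase. For the L-ascorbate oxidase they were PDE_00798 (0.117), described as a negative regulator, and a phytanoyl-CoA dioxygenase family protein (PDE_00792; 0.131). For Abr1 they were PDE_00602 (0.031) and PDE_05041 (0.082). Between the 5 genes themselves the distances ran from 0.41, between Arp1 and Arb2, to 2.57, between Abr1 and the L-ascorbate oxidase. With 3 libraries many genes can come close by chance, and these names are a description only.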

How the data were processed

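Polyadenylated RNA was bound to oligo(dT) beads and copied to cDNA, which NlaIII cut at CATG; MmeI then freed tags of 17 bp, which were PCR-amplified and read at 35 bp, per the labels. Tag counts per gene were deposited unnormalised, with library totals, per the file headers. The deposited TPM values are tags divided by that total and scaled to 1000000 (recomputed to within 0.005 TPM). Tag mapper, genome build, annotation version, strand use and treatment of tags shared between genes are not stated in these sources, so members of gene families are uncertain. The 6 columns of 3 libraries grown on cellulose and wheat bran were not used: they fill 9184 rows, of which 8902 have an identifier. The reference gene table held 0 of the PDE identifiers.

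The members and lists were chosen with earlier results of these data known. With 1 library per strain no p-value was computed. Intervals (exact Poisson, exact binomial, conditional odds ratio; scipy 1.17.1) cover counting error only, and no molecular identifiers are mentioned. A gene was measured at 10 TPM (33.5 to 33.6 tags) in any library, and lower or higher at 2-fold on TPM + 1 against both other strains. A check on simulated counts tested only that the rule was coded as stated, since 1 library per strain gives no spread to simulate. Lists used patterns in product descriptions. Named genes are the 5 members, measured pigment and multicopper genes, neighbours and other list genes past the rule, each list's most abundant gene and the 2 nearest profiles; any other gene was named after its values were seen. Alternatives were 4 scalings (edgeR 4.0.16 gave the TMM factors), other pseudocounts, minimums and a 3-fold threshold.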

Additional observations from a re-analysis of the deposited data

How the results depend on the processing

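All 5 genes were lower in Dmtr23B than in both other strains, and none differed 2-fold between parent and complemented strain, under each of 9 alternatives. Some of these could not have changed the calls. A 3-fold threshold or another minimum cannot bring a member past 2-fold, and no minimum or a smaller pseudocount cannot undo a lower call. The ratios of the 5 genes kept their direction under 4 scalings and 2 pseudocounts. Of 30 values each, 4 of parent to deletion, 7 of complemented to deletion and 8 of complemented to parent left the main counting interval. The L-ascorbate oxidase ran from 33.6 to 43.5 (parent to deletion strain) and Abr1 from 2.97 to 4.43. The counts over all genes moved more. Genes higher in Dmtr23B than in both other strains, 623, became 331 under TMM scaling, 328 under median-ratio scaling, 298 at a minimum of 50 TPM and 213 at a 3-fold threshold. Genes lower there, 450, became 603 under TMM scaling, 608 under median-ratio scaling and 267 at 50 TPM. The share of 7.82% set beside other counts thus depends on the scaling. Genes higher in Rmtr23B than in M12, 236, became 105 at 50 TPM, 441 with no minimum and 89 at 3-fold, and genes lower there, 566, became 258, 895 and 176. Fewer or more genes tested, or a stricter threshold, sets these last counts by construction. Neighbours lower in Dmtr23B numbered 4 to 6. No paired analysis was possible because each strain has 1 library and replicate numbers pair nothing. For the same reason no library could be left out. A count of 0 would allow 3 tags, 0.893 to 0.895 TPM, and no member came near it.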

Other observations

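A second pigment route starts from tyrosine: in A. fumigatus, homogentisate that is not broken down can polymerise to pyomelanin. Of 3 rows named for this route, 2 were measured. 4-hydroxyphenylpyruvate dioxygenase (PDE_09761), which makes homogentisate, stood at 7390 TPM in M12, 206 TPM in Dmtr23B and 9631 TPM in Rmtr23B. M12 exceeded Dmtr23B 35.8-fold (95% counting interval 33.2 to 38.7), beside 36.0-fold for the L-ascorbate oxidase. Homogentisate dioxygenase HmgA (PDE_08906), which breaks homogentisate down, stood at 22.6, 21.8 and 16.4 TPM and was neither lower nor higher by the size rule. The fumarylacetoacetate hydrolase family gene PDE_04560 had 14, 25 and 17 tags, under the minimum.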
